A study of Rattus norvegicus with 18 samples.

Results

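The genes described here are the 41 genes whose abundance in the gastrocnemius muscle was lower in every aged rat on caloric restriction (CR) than in every rat fed ad libitum (AL), young or aged. They were chosen on CPM, the count of a gene multiplied by 1000000 and divided by the library's total over genes outside the mitochondrial genome. A gene on chromosomes 1 to 20 was taken when its mean CPM over the 18 libraries was at least 1 and its highest CPM among the 6 CR libraries was below its lowest CPM among the 12 AL libraries. Of 32883 gene identifiers in the table, 12848 met the minimum and lay on those chromosomes, and 42 of these had separated groups in that direction. Of the 42, 1 gene was left out by name when the rule was written and is not described here, so that every ranking below is among the remaining 41 and does not place that gene. The opposite rule, applied to the same genes, found 28 genes that were higher in every CR rat than in every rat fed AL, and 31 genes were lower in every aged rat of either diet than in every young rat. Because the rule was written on these values, the difference between CR and AL is given below as a description, without a test, and the comparison of aged with young rats fed AL is the one that was tested.

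All rats were male Brown Norway rats (BN/SsNOlaHSD). The young group (6 rats, 6 months) and the first aged group (6 rats, 28 months) ate AL. The second aged group (6 rats, 28 months) received 55% of the AL intake, having been assigned to its diet at 2 months of age, and was fed a daily ration in the late morning. Aged CR and aged AL rats were of the same age. No young CR group was analysed here, so whether diet differs in its relation to these genes in young rats was not tested, and the time of day at which the rats were killed was not given in the sources used here. Each library is from 1 rat. Of the CR libraries, 3 could be tied to their group only and are called by their library numbers 8826, 8827 and 8828. The libraries of each group carry their own run of numbers, so that any difference in handling between those runs and the groups cannot be told apart.

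The gastrocnemius is a mixed hindlimb muscle of the calf. Skeletal muscle loses mass and force with age, and CR, a lasting reduction of food intake without malnutrition, is widely used in rodents to slow age-related decline. The table gives Ensembl identifiers without gene symbols, and 0 of the 32883 identifiers could be matched to the 47357 genes of the RefSeq table at hand. The genes are therefore numbered 1 to 41 in the order of the ratio of the lowest AL value to the highest CR value, and are given by their position in Rnor_6.0. For the same reason no role is given for a gene, and neither the pathway lists nor the markers of muscle and other cell types, which would check the tissue, were analysed here. In RNA from whole muscle, fewer cells of a type and less RNA per cell cannot be told apart.

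Library totals ranged from 17335401 to 27432767 counts, at which 1 count is worth 0.0374 to 0.0606 CPM. The share of counts on mitochondrial genes had a median of 4.96% in young rats, 4.03% in aged rats fed AL and 7.57% in aged CR rats. No CR library lay near that median. The share was 2.49% in library 8828, 4.37% in rat 15 and 4.74% in rat 13. It was 10.4% in library 8827, 10.5% in library 8826 and 12.4% in rat 14. On the first principal component of all genes tested, 2 libraries stood apart, those of aged AL rat 8 (108.9) and aged CR 8828 (75.5), against -45.8 to 8.25 for the other libraries. The trimmed mean of M-values (TMM) factor, by which edgeR adjusted the library total in the fit, was 1.44 for rat 8, compared with 0.838 to 1.14 for all other libraries. Per-rat values on the TMM scale are edgeR's CPM with TMM factors computed over all genes, and on it the values of rat 8 are much lower than as CPM. Means, ranges and SDs below are in CPM unless the TMM scale is named. In CPM the aged AL mean was above the young AL mean in 17 of the 41 genes, and in 7 of these, genes 6, 16, 28, 32, 34, 38 and 39, it was below it on the TMM scale.

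Among the 41 genes, the mean of the CR rats was 31.8% to 84.5% of the mean of the rats fed AL, with a median of 62.0%. In 11 genes the CR mean was under 50% of the AL mean, in 21 it was between 50% and 75%, and in 9 it was at least 75%. The ratio of the lowest AL to the highest CR value ran from 1.599 in gene 1 to 1.00026 in gene 41. It was at least 1.2 in 8 genes and at least 1.1 in 17. Just outside the rule, the nearest 3 genes had ratios of 0.999 (chr16:7473370-7538201), 0.999 (chr1:100811755-100827111) and 0.998 (chr5:99413187-99566318), while genes 39, 40 and 41, just inside, had ratios of 1.002, 1.002 and 1.00026. The boundary was set by many rats. The lowest AL value belonged to an aged rat in 25 genes and to a young rat in 16, most often to rats 8 and 2, with 7 genes each. The highest CR value belonged most often to rat 15 and library 8828, with 10 genes each, followed by rat 13 with 9.

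**Figure D1:**
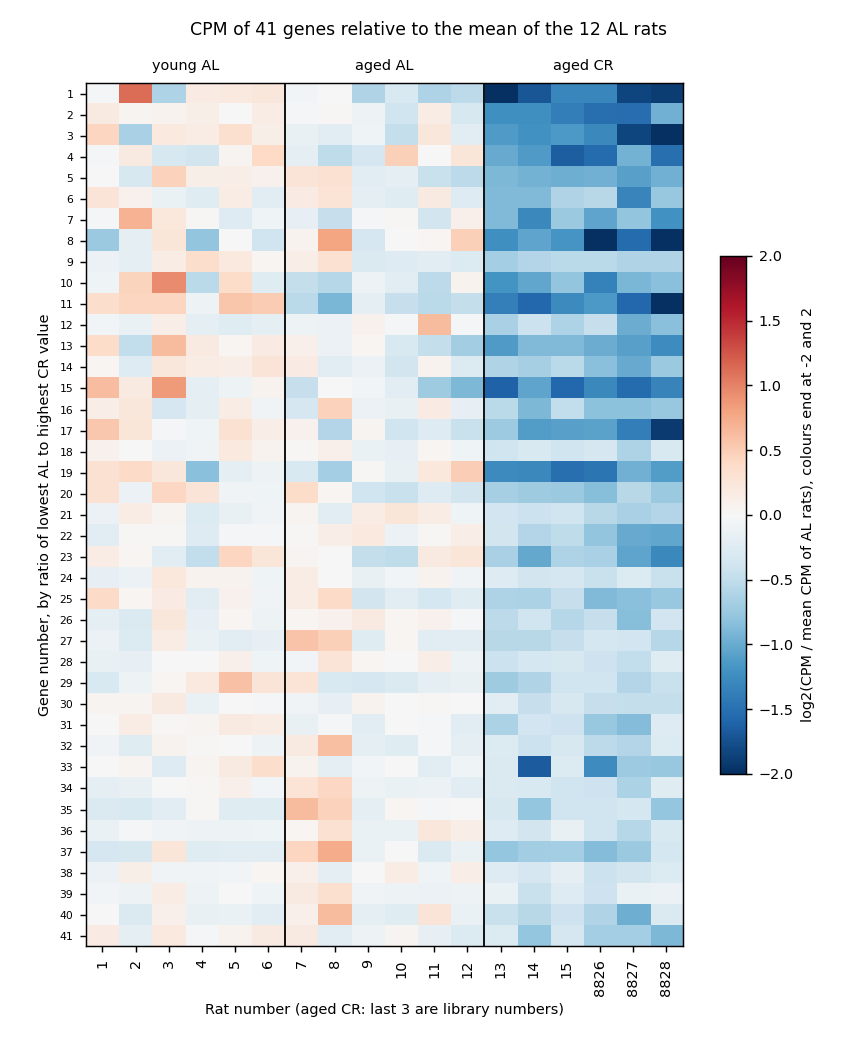
Heat map of the 41 genes (rows, by gene number) in the 18 rats (columns, by group), coloured by the log2 ratio of the CPM in that rat to the mean CPM of the 12 rats fed AL, with colours ending at -2 and 2. The 6 aged CR columns are blue in the upper rows, where the CR mean fell to 31.8% of the AL mean, and paler in the lower rows.

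Among the 41, the largest separation was in gene 1 (ENSRNOG00000006033, chr14:82818663-82824599, plus strand, 6 exon blocks). It measured 5.26 to 17.6 CPM (median 9.14) in young rats, 5.28 to 8.05 CPM (median 6.09) in aged rats fed AL and 2.01 to 3.29 CPM (median 2.36) in aged CR rats. All CR rats lay below all rats fed AL, while the AL groups overlapped and the young group was stretched upward by rat 2. The group means were 9.75 ± 4.13, 6.43 ± 1.23 and 2.58 ± 0.564 CPM (SD, n = 6 in each group, as for all means below). Gene 2 (chr13:48745860-48766283, plus strand) had the tightest young group of these, at 9.55 to 10.9 CPM (median 10.3), with 7.32 to 10.7 CPM (median 9.24) in aged rats fed AL and 3.36 to 4.97 CPM (median 3.90) in aged CR rats. The gap below its lowest AL value was 1.47-fold, and in CPM it was wider than the whole range of the young rats.

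Gene 3 (chr10:86683875-86690815, minus strand) measured 38.3 to 80.6 CPM (median 67.7) in young rats, 43.1 to 70.03 CPM (median 53.1) in aged rats fed AL and 14.9 to 27.6 CPM (median 25.3) in aged CR rats. Its lowest AL value came from young rat 2, the same rat that was highest for gene 1, and the other 5 young rats were all at 65.0 CPM or above. Over 10.3% of its exon bases (263 bases) gene 3 overlaps a gene on the opposite strand (chr10:86657285-86684933), and the counting command sets no strand option, so reads in that stretch cannot be assigned to one strand. That neighbour was at 60.0 ± 5.24 CPM in young rats, 57.4 ± 5.83 in aged rats fed AL and 49.2 ± 2.91 in aged CR rats, a smaller relative difference than in gene 3. Gene 34 (chr10:86711240-86721246, plus strand) lies 20425 bases away on the other strand and is also among the 41, although with a narrow margin of 1.01. Its values were 42.02 to 51.1 CPM in young rats, 40.7 to 63.5 in aged rats fed AL and 30.7 to 40.2 in aged CR rats.

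Gene 4 (chr14:86881541-86881669, minus strand) is a gene of 129 bases with a single exon, lying inside a longer gene on the same strand (chr14:86877627-86885584). It measured 2.39 to 4.06 CPM (median 3.13) in young rats, 2.19 to 4.32 CPM (median 2.92) in aged rats fed AL and 0.985 to 1.61 CPM (median 1.25) in aged CR rats, on counts that went down to 19 in a library. The host gene was at 53.5 ± 4.80 CPM in young rats, 51.3 ± 9.86 in aged rats fed AL and 45.0 ± 8.15 in aged CR rats, so that the short gene carried the larger relative difference. With TMM-scaled values gene 4 no longer met the rule, its ratio being 0.890.

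Gene 5 (chr14:34446616-34502218, plus strand, 21 exon blocks) measured 101 to 174 CPM (median 135) in young rats, 88.00 to 156 CPM (median 109) in aged rats fed AL and 59.5 to 67.9 CPM (median 64.7) in aged CR rats. The CR rats were nearly uniform, with an SD of 2.79 CPM against 23.6 and 29.0 in the young and aged AL groups. Gene 9 (chr4:57511418-57625257, minus strand) measured 108 to 158 CPM (median 133) in young rats, 101 to 153 CPM (median 105) in aged rats fed AL and 77.7 to 85.3 CPM (median 82.4) in aged CR rats, with an SD of 2.79 CPM under CR and of 21.8 CPM in aged rats fed AL, where rat 8 was highest. On the TMM scale these SDs were 5.44 and 6.55. In gene 6 (chr3:142778770-142783774, minus strand) the AL groups had nearly equal means in CPM, at 107 ± 15.5 CPM in young and 108 ± 18.2 CPM in aged rats, while aged CR rats measured 43.3 to 73.8 CPM (median 61.4). Gene 7 (chr20:45042770-45053640, minus strand) is one of 3 genes with a mean under 5 CPM, at 1.58 to 3.06 CPM in young rats, 1.38 to 2.04 in aged rats fed AL and 0.778 to 1.14 in aged CR rats, and its lowest count was 17.

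Gene 8 (chr13:112031594-112073186, plus strand, 23 exon blocks) was the gene with the lowest fitted log2 fold change of aged CR against aged rats fed AL, -1.56 (SE 0.24). It measured 5.62 to 11.5 CPM (median 7.91) in young rats, 7.64 to 16.7 CPM (median 10.04) in aged rats fed AL and 2.06 to 4.67 CPM (median 3.72) in aged CR rats. Its mean on the AL diet was 11.3 ± 3.27 CPM in aged and 8.06 ± 2.27 CPM in young rats, with overlapping values. Gene 19 (chr9:115849732-115850634, minus strand, a single exon of 903 bases) spread widely on the AL diet, with 33.1 to 76.9 CPM (median 62.02) in young rats and 36.9 to 82.7 CPM (median 56.8) in aged rats, while its CR values were 20.8 to 30.4 CPM (median 24.3). Per kilobase of exon, gene 19 was among the more abundant, with an AL mean of 65.3 CPM per kilobase.

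Among genes 10 to 15, most means descended from young to aged AL to aged CR rats. Gene 10 (chr11:13499164-13501263, plus strand, a single exon of 2100 bases) averaged 30.1 ± 11.5 CPM in young rats, 21.1 ± 3.89 in aged rats fed AL and 12.7 ± 1.84 in aged CR rats. Gene 13 (chr8:56179637-56264263, plus strand) averaged 58.7 ± 14.3, 44.4 ± 9.12 and 25.2 ± 2.47 CPM, and gene 14 (chr7:97559841-97695739, plus strand) averaged 55.4 ± 6.70, 47.8 ± 7.01 and 31.3 ± 3.59 CPM in the same order. Gene 12 (chr7:114821971-114848414, minus strand) did not follow the gradient, with means of 15.6 ± 1.51 CPM in young rats, 18.1 ± 4.03 in aged rats fed AL and 10.7 ± 1.55 in aged CR rats. In the young and aged AL groups the spreads of genes 10, 12, 13 and 14 overlapped, and none of the 4 was called between those groups with all libraries.

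**Figure D2:**
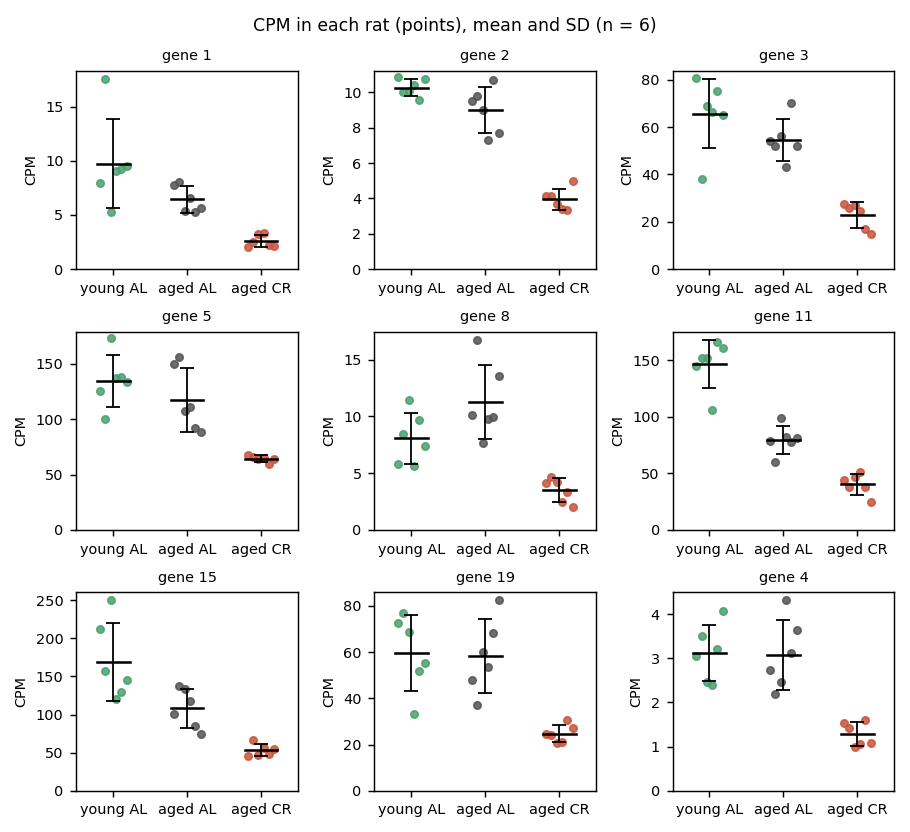
CPM of 9 of the genes in each rat (points, 6 per group), with the group mean (line) and SD (bars), on axes that start at 0. In each panel the 6 aged CR points lie below the 12 AL points, and for gene 11 the aged AL points (60.3 to 98.5) also lie below the young points (106 to 166).

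The levels of the 41 genes covered a wide range. Mean CPM over the 18 libraries ran from 1.252 to 230.8, with a median of 42.8, against a median of 17.6 over the 12848 genes to which the rule was applied. Of those genes, 72.9% had a mean below 42.8 CPM. Per kilobase of exon, the AL mean ran from 0.763 in gene 33 (chr1:35868009-35869909, plus strand) to 177 in gene 21 (chr4:151414684-151428894, minus strand), with a median of 12.2 CPM per kilobase. Gene 21 measured 212 to 283 CPM (median 240.0) in young rats, 219 to 304 CPM (median 274) in aged rats fed AL and 162 to 196 CPM (median 181) in aged CR rats. Gene 33 rested on as few as 10 counts in a library, with 1.21 to 1.84 CPM in young rats, 1.24 to 1.51 in aged rats fed AL and 0.458 to 1.19 in aged CR rats.

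Genes 16 to 25 had ratios between 1.07 and 1.11. Relative to the AL mean, the widest difference among them, after gene 19, was in gene 17 (chr19:14653198-14663914, plus strand), which averaged 15.8 ± 2.59 CPM in young rats, 11.7 ± 2.23 in aged rats fed AL and 6.10 ± 1.54 in aged CR rats. Gene 16 (chr2:220481616-220535751, minus strand) averaged 77.8 ± 11.7, 78.1 ± 16.6 and 47.6 ± 5.55 CPM in that order, and gene 20 (chr9:81844138-81868086, minus strand) averaged 51.6 ± 8.34, 42.6 ± 10.2 and 28.9 ± 2.000 CPM. For gene 16 the AL means were close together in CPM, whereas gene 20 lay lower in aged than in young rats fed AL without passing the test.

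Gene 22 (chr1:261229347-261280536, plus strand) averaged 19.7 ± 1.64 CPM in young rats, 21.8 ± 1.72 in aged rats fed AL and 12.8 ± 2.41 in aged CR rats. Gene 23 (chr18:31414250-31430973, minus strand) averaged 26.5 ± 5.81, 24.6 ± 5.29 and 14.1 ± 2.64 CPM, and gene 25 (chr3:8928534-8951189, plus strand) averaged 41.4 ± 5.89, 37.2 ± 8.43 and 24.4 ± 2.65 CPM. Genes 18 (chr12:2461502-2502432, plus strand) and 24 (chr10:13451624-13515448, minus strand) belonged to this range of ratios by being narrow in every group and not by a large drop. Gene 18 averaged 76.5 ± 5.84, 73.1 ± 5.23 and 57.1 ± 4.48 CPM, and gene 24 averaged 42.04 ± 4.27, 41.7 ± 3.06 and 32.7 ± 1.84 CPM, in young, aged AL and aged CR rats.

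The remaining genes, 26 to 41, had ratios between 1.00026 and 1.06, and for these a small shift of 1 rat decides membership. Some were nonetheless far apart on average. Gene 41 (chr2:210977938-210982579, plus strand, a single exon) averaged 52.6 ± 5.23 CPM in young rats, 47.5 ± 5.86 in aged rats fed AL and 33.3 ± 5.93 in aged CR rats, while its highest CR value and its lowest AL value were both 41.5 CPM. Gene 37 (chr13:35678240-35858390, minus strand, 27 exon blocks) averaged 118 ± 19.4, 147 ± 43.9 and 82.8 ± 10.7 CPM, and gene 40 (chr3:3510041-3574787, minus strand) averaged 22.1 ± 2.20, 25.6 ± 6.34 and 16.5 ± 2.54 CPM. In CPM the aged AL group had the widest spread in both, with rat 8 highest. On the TMM scale the young group had it, with an SD of 29.4 against 20.6 in aged rats fed AL for gene 37, and of 4.05 against 2.45 for gene 40. Gene 39 (chr1:182085899-182140570, minus strand) had the smallest relative difference, with means of 24.8 ± 1.74, 25.9 ± 3.48 and 21.4 ± 2.16 CPM.

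Of the others with narrow margins, genes 36 (chr4:119815139-119864114, plus strand) and 38 (chr9:41348449-41381101, plus strand) were abundant. Gene 36 averaged 101 ± 2.31 CPM in young rats, 113 ± 14.4 in aged rats fed AL and 84.8 ± 8.25 in aged CR rats, and gene 38 averaged 143 ± 8.92, 148 ± 13.8 and 117 ± 7.06 CPM. Gene 30 (chr18:74012960-74059533, minus strand) averaged 99.3 ± 7.04, 96.2 ± 5.43 and 74.3 ± 5.88 CPM. Gene 28 (chr10:97647111-97684730, plus strand) averaged 108 ± 7.76, 115 ± 10.6 and 86.1 ± 5.49 CPM, and gene 32 (chr3:123434409-123567918, plus strand) averaged 97.1 ± 7.36, 104 ± 25.7 and 76.3 ± 7.002 CPM. On the TMM scale the SD in aged rats fed AL was 7.40 for gene 32, 9.86 for gene 36, 11.1 for gene 28, 26.7 for gene 38 and 15.9 for gene 30, and thus wider than in CPM for the last 3 of these. Among these 5 genes the CR mean was 73.3% to 84.0% of either AL mean.

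Gene 26 (chr7:129749714-129787093, plus strand) averaged 18.9 ± 2.51 CPM in young rats, 20.9 ± 1.02 in aged rats fed AL and 13.9 ± 1.57 in aged CR rats. Gene 27 (chr2:182897830-183031214, minus strand, with 35 exon blocks the most of any of the 41) averaged 58.3 ± 6.18, 68.5 ± 18.1 and 45.7 ± 3.05 CPM. Gene 29 (chr15:51982982-52029816, minus strand) averaged 50.5 ± 10.97, 41.4 ± 7.06 and 32.1 ± 2.81 CPM, and was thus graded, while genes 26 and 27 had the higher CPM mean in aged rats fed AL. For gene 26 the means were nearly equal on the TMM scale, at 18.7 in young and 18.8 in aged rats, with a fitted log2 fold change of -0.02 (SE 0.13). Gene 31 (chr7:3098245-3102142, minus strand) averaged 15.97 ± 0.827, 13.9 ± 0.983 and 10.3 ± 1.67 CPM, and gene 35 (chr3:12178853-12415073, minus strand) averaged 8.64 ± 0.739, 11.3 ± 2.68 and 7.10 ± 0.987 CPM.

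The membership of the 41 depended on how libraries were scaled. With TMM-scaled CPM, 28 genes met the same rule, of which 17 were among the 41, so that 41.5% of the original genes and 60.7% of the TMM genes were shared. The 24 genes that were lost then had ratios between 0.720 and 0.993. In 19 of those 24, the lowest AL value on the TMM scale belonged to aged AL rat 8, and with rat 8 left out of the TMM values 33 of the 41 met the rule. Other ways of applying TMM were tried after seeing the data. With factors over only the genes tested, 31 genes met the rule, with the same 17 among the 41. With the CPM of the rule divided by those factors, 21 genes met it, of which 13 were among the 41. With rat 8 left out, 32 of the 41 met the rule on the first of these scales and 22 on the second. The 17 genes that met the rule in CPM and on the TMM scale were genes 1, 2, 3, 5, 6, 8, 9, 13, 15, 22, 23, 25, 28, 32, 34, 37 and 40. With mitochondrial genes counted in the library total, 42 genes met the rule and 35 were shared. Genes 1, 2, 3, 5, 6, 8, 9, 13 and 15 met it under both of these changes and also kept a ratio of at least 1.1 in CPM. Leaving out aged CR library 8828 raised the number of genes meeting the rule to 66, and leaving out aged CR rat 13 raised it to 63. Leaving out any other CR library gave between 41 (library 8826) and 54 (rat 15). In each case a library fewer has to be separated, and why the numbers differed was not tested.

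**Figure D3:**
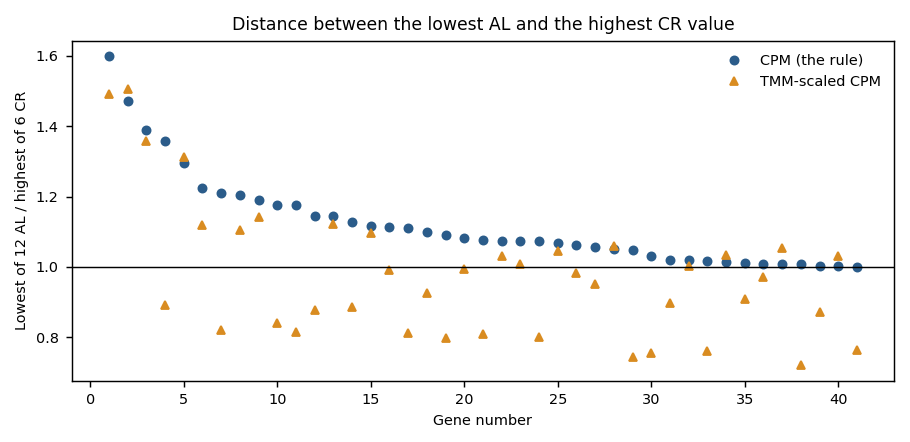
Ratio of the lowest value among the 12 rats fed AL to the highest among the 6 aged CR rats for each gene, from CPM (circles, the values that chose the genes) and from TMM-scaled CPM (triangles), with a line at 1. All circles lie above 1, from 1.599 down to 1.00026, while 24 triangles lie below it, down to 0.720.

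The rule did not compare aged with young rats on the AL diet, and that comparison was tested next. It did use the values of both AL groups, and all CR rats were aged. A gene lower with age on either diet could therefore meet the rule more easily than a gene higher with age. How far this choice shaped the counts below was not tested, so the shares over all genes beside them are descriptions. All 41 genes passed the filter on low counts and were tested among 14646 genes with edgeR's quasi-likelihood test, with calls at a Benjamini-Hochberg adjusted p of at most 0.05 and a change of at least 1.5-fold. Against young rats, 3 of the 41 genes were called lower in the aged rats on the same diet, compared with 1.52% of all genes tested. None was called higher (0 of 41, against 1.88% of all genes). DESeq2 likewise called 3 lower and 0 higher, where over all genes it called 985, of which 471 were lower. At an unadjusted p below 0.05 by edgeR, 16 of the 41 were lower (10.6% of all genes) and 0 were higher (11.6% of all genes). The other 38 genes were not called. The count of 3 fell to 1, gene 11, when young rat 1 or 6 or aged AL rat 7, 11 or 12 was left out.

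Gene 11 (ENSRNOG00000045821, chr4:123467549-123510217, minus strand, 12 exon blocks) showed the clearest difference between the AL groups. It measured 106 to 166 CPM (median 152) in young rats, 60.3 to 98.5 CPM (median 79.6) in aged rats fed AL and 24.4 to 51.3 CPM (median 41.04) in aged CR rats. In CPM no 2 of the 3 groups overlapped, and the steps from young to aged AL and from aged AL to aged CR were each about as large on the log scale. The fitted log2 fold change of aged against young rats fed AL was -1.01 (SE 0.20), with an adjusted p of 0.00966 by edgeR. That of aged CR against aged rats fed AL was -0.89 (SE 0.20), and that of aged CR against young rats was -1.91 (SE 0.21). The call between the AL groups held in all 26 alternatives tried for it, with adjusted p from 0.000187 to 0.0265. On the TMM scale, however, gene 11 did not meet the rule for CR against AL, with a ratio of 0.814.

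Gene 15 (chr7:61786309-61798729, minus strand, 2 exon blocks) measured 121 to 249.9 CPM (median 151) in young rats, 73.98 to 137 CPM (median 109.7) in aged rats fed AL and 45.3 to 66.3 CPM (median 51.4) in aged CR rats. The AL groups overlapped, and young rats were the most variable of the 3 groups. Its log2 fold change of aged against young rats fed AL was -0.83 (SE 0.22), with an adjusted p of 0.0358 by edgeR. The call held in 17 of 26 alternatives, with adjusted p up to 0.0916. It was lost without young rat 1 (adjusted p 0.0788), 3 (0.0860) or 6 (0.0545), and without aged AL rat 7 (0.0586), 11 (0.0623) or 12 (0.0769).

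For gene 1, described above, the log2 fold change of aged against young rats fed AL was -0.74 (SE 0.21), with an adjusted p of 0.0465 by edgeR. This value sat close to the threshold, and the call held in 6 of 26 alternatives, with adjusted p between 0.0140 and 0.1355. Leaving out young rat 2, which had the highest value of this gene, changed the log2 fold change to -0.52 with an adjusted p of 0.0746. Any of the 6 aged rats fed AL, left out in turn, also took the adjusted p above 0.05, to between 0.0519 and 0.0856, as did 4 other young rats (0.0548 to 0.0833) and 4 of the CR libraries (0.0511 to 0.0574) other than rat 13 and 8828.

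Among the genes not called, genes 9, 20 and 31 had the lowest adjusted p by edgeR, but their changes were below 1.5-fold. Their log2 fold changes were -0.34 (SE 0.10), -0.46 (SE 0.14) and -0.35 (SE 0.11), with adjusted p of 0.0577, 0.0670 and 0.0747 by edgeR and of 0.0175, 0.0374 and 0.0446 by DESeq2. In gene 31 every aged AL value (12.7 to 14.97 CPM) lay below every young value (15.1 to 16.9 CPM), as in gene 11. In CPM these were the 2 of 41 genes in which the AL groups did not overlap in that direction, compared with 0.654% of the 12848 genes to which the rule was applied. On the TMM scale the AL groups overlapped in both, and 0 of the 41 genes were separated in that direction, against 0.965% of the 12848. With the CPM of the rule divided by the factors of the fit, gene 11 alone was separated, against 1.26% of the 12848. Gene 13 was at -0.58 (SE 0.19) with an adjusted p of 0.0824 by edgeR. Over its alternatives the adjusted p ran from 0.0245, without young rat 2, to 0.205, without young rat 3, where the change was -0.41. Without young rat 2 the change was -0.70, so that gene 13 was called lower there.

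The positive fitted changes from young to aged rats fed AL, in the remaining 7 genes, were small. The highest was gene 8 at 0.29 (SE 0.23), with an adjusted p of 0.490 by edgeR, followed by gene 35 at 0.21 (SE 0.13) with 0.363 and gene 37 at 0.12 (SE 0.14) with 0.658. None of the 3 passed the test against the spread between rats, in the fit or in any alternative. With adjusted p from 0.203 to 0.677 over the alternatives, gene 8 ran from 0.19 without young rat 4 to 0.48 without young rat 3 and 0.50 with total counts. Gene 35 fell to 0.12 without aged AL rat 7 and was at 0.40 with total counts (adjusted p 0.123 to 0.630). Gene 37 was at 0.07 without aged AL rat 7 or rat 8, 0.28 without young rat 3 and 0.34 with total counts (adjusted p 0.184 to 0.835). Gene 12 was at 0.06 (SE 0.17) and changed sign, to -0.08, without aged AL rat 11, which held its highest value.

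Over the 41 genes, the fitted log2 fold change of aged against young rats fed AL had a median of -0.19, with 34 values below 0, compared with a median of 0.01 and 49.0% below 0 over all genes tested. Because the rule used the same AL values, these numbers describe the 41 genes and are no test of them as a set. How many fell below 0 depended on the scaling. With total counts in place of TMM factors, the median of all genes moved by 0.18, to 0.18, with 27.4% of all genes below 0, and 24 of the 41 genes were below 0, with a median of -0.03. With upper-quartile factors 30 genes were below 0, and with DESeq2 33 were. Relative to the median of all genes, 35 of the 41 lay below it with TMM, upper-quartile factors, total counts and DESeq2 alike, and 30 when aged AL rat 8 and aged CR library 8828 were both left out. The 28 genes that were higher in every CR rat had 18 values below 0 with a median of -0.11 in the same comparison, with 1 called lower and 1 called higher.

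**Figure D4:**
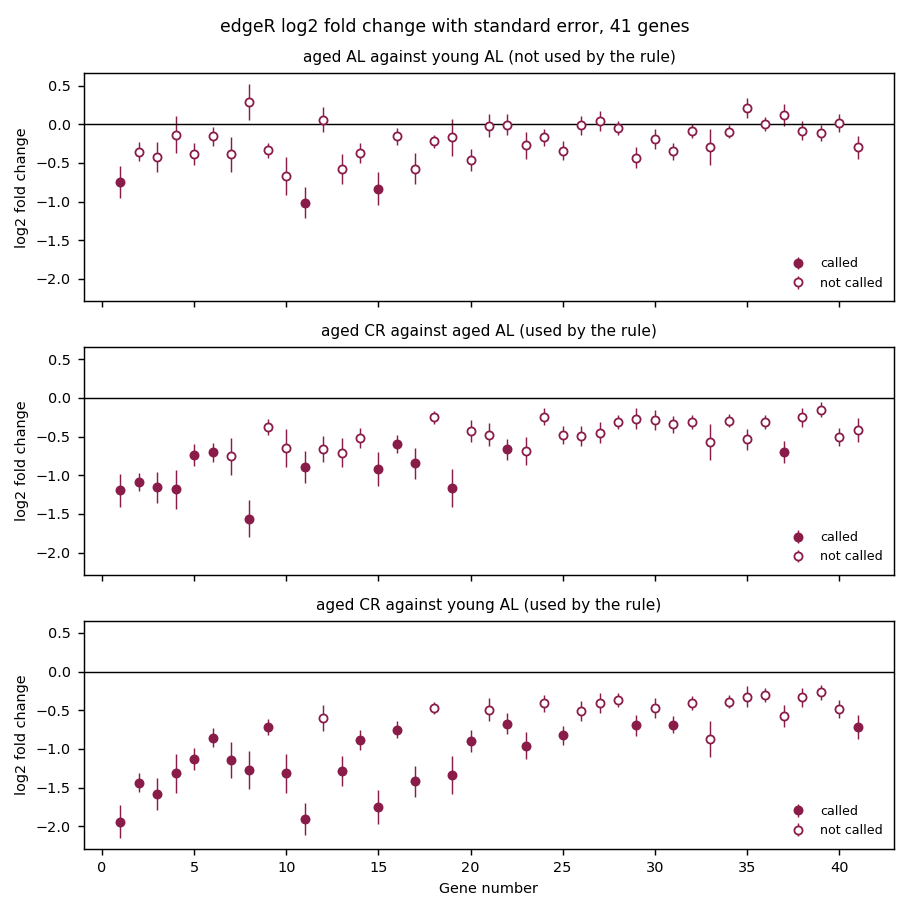
Fitted log2 fold change with its standard error (bars) for each of the 41 genes by edgeR, in aged against young rats fed AL (top, the comparison that the rule did not use), aged CR against aged rats fed AL (middle) and aged CR against young rats (bottom), with filled circles for called genes. In the top panel 3 genes (1, 11 and 15) are called, and the lower panels, which the rule fixed to lie below 0, show 14 and 24.

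As a description of the contrasts that the rule used, the fitted log2 fold changes of aged CR against aged rats fed AL lay between -1.56 and -0.15 with a median of -0.54, and 14 genes reached the call threshold (0.546% of all genes tested were called lower). The choice of the genes on these values bears on that count, so it is no test of them. Against young rats they lay between -1.94 and -0.27 with a median of -0.71, and 24 reached it (1.22% of all genes). The same CR libraries enter both comparisons. Both calls were reached by 13 genes, the call against young rats only by 11, and that against aged rats fed AL only by gene 37. The other 16 genes reached neither.

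The 41 genes were compared next for properties that the rule did not use. They lay on 16 of the 20 chromosomes, with at most 5 on one chromosome (3 and 7) and none on chromosomes 5, 6, 16 and 17. Only genes 3 and 34 were neighbours. On the plus strand lay 19 genes and on the minus strand 22. Their exonic length had a median of 3461 bases, against 2411 over the 12848 genes, and their span from start to end had a median of 37380 bases against 21338.5. Despite this greater length they had fewer exon blocks, with a median of 7 against 9. A single exon block made up genes 4, 10, 19 and 41, which is 9.76% of the 41 against 4.49% of the 12848 genes, and 16 genes (39.0% against 22.3%) had at most 4 blocks. Spans over 100 kb were found in 6 genes (14.6% against 12.3%). These shares are descriptions. The 41 genes also had the higher mean CPM given above, and its part in the shares was not tested.

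The tested genes nearest to them were also examined. These were 86 distinct genes that overlap one of the 41 or are the nearest tested gene on either side. The nearest tested gene was not always the adjacent one, and to the right of gene 8 it lay 1300392 bases away. Of the 86, 0 were called lower in aged CR than in aged rats fed AL by edgeR and 1 by DESeq2. Over all genes, 80 and 191 were called lower. The median log2 fold change of the 86 was -0.05 by edgeR. At an unadjusted p below 0.05 in edgeR, 12 of the 86 (13.95%) were lower, against 7.59% of all genes tested. In aged CR against young rats, 2 of the 86 were called lower by edgeR and 2 by DESeq2, with a median of -0.09 by edgeR. Over all genes, 178 and 422 were called lower. Those 2 called by edgeR were the nearest tested genes to the left of gene 8 (chr13:112004140-112005052), at -2.63 (SE 0.47), and of gene 30 (chr18:73564247-73625137), at -1.09 (SE 0.28). Against aged rats fed AL, the gene beside gene 8 was at -1.60 (SE 0.45) and not called, where gene 8 was at -1.56. At an unadjusted p below 0.05 in edgeR, 17 of the 86 were lower, against 1478 of the 14646 genes tested. Of the 41 genes, 11 overlap the span of another gene, 7 of them on the opposite strand. Exon bases are shared with another gene in only 3, namely gene 3, gene 20 (3.10% of its exon bases) and gene 28 (2.54%). Genes 14, 27, 30 and 35 overlap a gene on the opposite strand without sharing exon bases with it, and gene 30 lies wholly inside one. The counting command sets no strand option, so reads of unspliced RNA from the opposite gene were not separated, and their part in the values was not tested.

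Lastly, the variation of the genes from rat to rat within a group was described. For each pair of genes, the log2 TMM-scaled CPM minus the mean of its group was correlated over the 12 rats fed AL. The 820 pairs had a median Pearson r of 0.384, while pairs of all genes tested had a median of -0.002. Without aged AL rat 8 the median over the 41 genes was 0.346. Over the 6 CR libraries it was 0.212, and 0.06 without library 8828, which stood apart on the first principal component. All pairs share the same libraries and their scaling, so these values are given without a test. The 41 genes were also chosen on these libraries for a shift in the same direction and had the higher mean CPM given above. The part of either in the correlations was not tested.

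Genes 5 and 34, on chromosomes 14 and 10, varied most alike over the rats fed AL, with r = 0.961. The next pairs were genes 21 and 30 (r = 0.939), genes 26 and 28 (r = 0.931), and genes 11 and 30 (r = 0.911). The pairs least alike were genes 16 and 35 (r = -0.805) and genes 1 and 3 (r = -0.803), the latter being the genes of which young rat 2 held the highest and the lowest young value. Within the CR group the closest pair was genes 30 and 41 (r = 0.968, 6 libraries). The neighbouring genes 3 and 34 were not among these pairs.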

How the data were processed

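Total RNA of the gastrocnemius of 18 rats (6 per group) was depleted of ribosomal RNA and made into strand-specific libraries by the authors. Per the submitters' processing notes and the file header, adapters were trimmed with cutadapt 1.2.1, reads were aligned with STAR 2.3.0e, and featureCounts 1.6.4 counted them on the genes of Ensembl release 96 (Rnor_6.0), with no strand option in its command. The deposited values are raw counts per gene and library, and the authors' table adds positions and exonic lengths, used here for coordinates and values per kilobase. Columns were tied to samples by their names, and 3 CR columns could be tied to their group only.

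CPM was computed without the 37 mitochondrial genes. All 14646 genes passing filterByExpr were fitted with edgeR 4.0.16 (R 4.3.3, TMM, quasi-likelihood test, 1 term per group, all 18 libraries), with Benjamini-Hochberg adjustment over all of them. Standard errors were derived from the log2 fold change and the F statistic. TMM-scaled CPM of single rats is edgeR's CPM with TMM factors over all genes and totals that include mitochondrial genes. Correlations used log2 of CPM plus 0.5 with factors over the genes tested. The fit was also run on simulated data, and no conclusion is drawn from that here. DESeq2 1.42.0, other scalings, filters and thresholds, and leaving out libraries were alternatives. Genes described were the 25 with the largest ratio, those called between the AL groups and those at the edge of the rule, and the others were added for completeness after their values were seen. The members and lists were chosen with earlier results of these data known. No symbol could be assigned, so the gene lists and cell type markers were not analysed, and no sequence is shown. Replicates are separate rats. The total counts, 17335401 to 27432767 per library, set the precision, 1 count being worth 0.0374 to 0.0606 CPM.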

Additional observations from a re-analysis of the deposited data

Results flagged for a closer look

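In 10 of the 123 combinations of gene and group, 1 rat lay far from the other 5 by Dixon's ratio, the gap to the nearest rat divided by the range of the group, at its 95% critical value. Chance gives about 1 in 20 such groups, or 6.15 here. Among young rats, rat 2 was high in gene 1 (17.6 CPM against 9.49 in the next rat, ratio 0.656) and low in gene 3 (38.3 against 65.0, ratio 0.632). Young rat 4 was low in gene 11 (105.9 against 144.9, ratio 0.652), which brought it closest to the aged rats, and high in gene 35 (10.1 against 8.63, ratio 0.724). Young rat 3 was high in gene 27 (70.04 against 58.7, ratio 0.651) and in gene 37 (156 against 113, ratio 0.830).

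Among aged rats fed AL, rat 11 was high in gene 12 (26.1 against 17.8, ratio 0.790), and rat 7 was high in gene 29 (55.4 against 41.3, ratio 0.747). In the CR group, library 8827 was low in gene 18 (48.7 against 56.7, ratio 0.660), and library 8828, which stood apart over all genes, was high in gene 37 (103.6 against 82.3, ratio 0.694). Gene 37 was thus set apart by 1 rat in both its young and its CR group. Aged AL rat 8, which also stood apart over all genes, was not among the rats that met this criterion.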

How the results depend on the processing

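The number of genes meeting the rule was 41, and became 17 with a required margin of 1.1, 21 with CPM divided by the TMM factors of the fit and 83 without aged AL rat 8 and aged CR library 8828 (both chosen after seeing the data), and 41 to 66 with 1 library left out. Of the 41, 3 were called lower in aged than in young rats fed AL. That number was 1 with total counts only, with no filter on low counts, with only the compared libraries in the fit and with an adjusted p limit of 0.01, and 1 to 3 with 1 library left out. The log2 change of gene 12 ran from -0.077, without aged AL rat 11, to 0.17 with 1 library left out, against 0.06 with all libraries.

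Over all genes, the aged and young AL groups differed in 497 genes (222 lower). The total was 985 with DESeq2 (471 lower), 330 with 10 counts required in every library, 258 with only the compared libraries (113 lower) and 124 at a limit of 0.01 (65 lower). With total counts only 102 were lower. With 1 library left out, 288 to 678 were called and 123 to 350 were lower. Between aged CR and aged rats fed AL, 202 were called (80 lower). The total was 434 with DESeq2 (191 lower), 129 with no filter, 130 with only the compared libraries (49 lower), 477 without rat 8 and 8828 (215 lower) and 44 at 0.01 (17 lower). With total counts only 198 were lower. With 1 library left out, 69 to 385 were called and 30 to 174 were lower. For aged CR against young rats, 290 passed (178 lower). The total was 706 with DESeq2 (422 lower), 441 with only the compared libraries, 455 without rat 8 and 8828 and 107 at 0.01 (72 lower). With 1 library left out, 185 to 578 were called and 118 to 276 were lower. The cause of these shifts was not tested.

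No paired analysis was possible because the rats carry different numbers in each group. Genes 4, 7 and 33 rest on the fewest counts, and whether depth limits the differences detectable in them was not tested. The p-values set the differences between groups against the variation between these rats, as estimated in each fit, and cover no other rats.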
